A study of Mus musculus with 8 samples.

Results

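The 8 measured genes of the CHD family of chromatin remodellers, Chd1, Chd2, Chd3, Chd4, Chd6, Chd7, Chd8 and Chd9, were followed through 3 stages of optic fissure closure in mouse embryos. Their probe sets were chosen by annotated gene symbol alone, which gave 8 of 18194 named genes and 21 of the 45101 probe sets on the array. Of the 21, 18 passed the filter on low signal, and all 8 genes kept at least 1. Wild-type C57BL/6 embryos were sectioned frozen and the fissure, the ventral cleft of the optic cup, was cut out by laser capture at embryonic day 10.5, 11.5 or 12.5, with no treatment. The earlier stages had 3 arrays each and E12.5 had 2, arrays are named here by stage and letter, and the RNA of 3 embryos was combined for each. The labels disagree on whether the pooled embryos shared a litter, so the replicate error below may or may not include differences between litters. The RNA was amplified in repeated rounds before labelling. Values are deposited log2 signals of single probe sets, whose levels cannot be compared between probe sets, so every comparison below is between stages or between arrays.

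CHD proteins carry paired chromodomains, which read histone tails, and an ATPase motor that slides or evicts nucleosomes. Chd7 binds enhancers of neural crest and neural progenitor genes, and loss of a single copy of human CHD7 causes CHARGE syndrome, in which coloboma, a fissure that fails to close, is a defining sign. Chd6, Chd8 and Chd9 belong to the same subfamily, Chd3 and Chd4 are the motor subunits of the deacetylase complex NuRD, and Chd1 and Chd2 act at transcribed genes.

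Array medians lay between 4.37 and 4.48. The bright ends differed more, and the 99 percentile was 11.2 to 12.4 on the E11.5 arrays against 12.5 to 12.9 on those of E10.5 and 12.5 to 12.6 on those of E12.5. The Gapdh control, whose 3 prime minus 5 prime log2 signal grows as amplified transcripts get shorter, read 4.19 to 4.71, 3.35 to 4.63 and 4.78 to 5.17 at these stages, so both E12.5 arrays stood above all others. The same measure of the Actb control was 6.83 to 6.96, 5.45 to 6.61 and 6.88 to 7.21, so by Actb the E12.5 and E10.5 arrays overlapped. Vax1 and Vax2, which mark the ventral optic cup, were present at every stage, with a log2 mean signal of 7.97 to 9.35 over the 8 arrays. Each such list value is the log2 of the mean unlogged signal of its genes, so the brightest genes weigh most. Of 8 markers of newborn neurons, limma called 6 higher at E12.5 than at E11.5, a call meaning an adjusted p below 0.05 here and throughout. The log2 mean signal of those 8 markers was 9.44 to 10.6 on the E12.5 arrays, against 3.63 to 3.97 on those of E10.5 and 3.56 to 4.07 on those of E11.5. Atoh7, Neurog2, Neurod1, Dcx, Tubb3 and Stmn2 had means below the filter value of 3.94 at both earlier stages. These genes passed the filter only through the E12.5 arrays, so being tested was tied to being high there. Array E10.5 C held the highest value of 6 of the 18 tested Chd probe sets (31.5% of all tested probe sets) and E11.5 A the lowest of 9 (35.5% of all).

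RefSeq promoter windows of GRCm38.p6, from 250 bases before to 50 bases after a transcript start, were matched by symbol for Chd4, Chd6, Chd8 and Chd9, and none was matched for Chd1, Chd2, Chd3 or Chd7. Those of Chd4 and Chd9 are shown because these genes held the most negative and the most positive change among the tested Chd probe sets, and the pair of annotated Chd9 starts differ in base composition. Chd4 also has 2 annotated windows, which overlap, and the downstream one is shown. Capitals mark CCAAT and GGGCGG on either strand, which may share bases.
Chd4, chr6:125095913-125096212, plus strand: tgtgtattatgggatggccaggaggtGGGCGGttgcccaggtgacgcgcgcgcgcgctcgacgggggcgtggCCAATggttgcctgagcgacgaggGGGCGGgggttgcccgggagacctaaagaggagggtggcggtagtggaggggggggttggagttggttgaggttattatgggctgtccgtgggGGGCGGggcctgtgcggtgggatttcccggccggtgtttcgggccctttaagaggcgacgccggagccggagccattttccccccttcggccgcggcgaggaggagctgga
Chd9, chr8:90828585-90828884, plus strand: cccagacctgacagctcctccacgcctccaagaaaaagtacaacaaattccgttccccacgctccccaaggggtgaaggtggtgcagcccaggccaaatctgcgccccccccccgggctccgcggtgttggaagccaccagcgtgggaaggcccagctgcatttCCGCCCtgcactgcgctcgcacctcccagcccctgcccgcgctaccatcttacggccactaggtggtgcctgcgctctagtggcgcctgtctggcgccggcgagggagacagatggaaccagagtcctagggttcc
Chd9, chr8:90931999-90932298, plus strand: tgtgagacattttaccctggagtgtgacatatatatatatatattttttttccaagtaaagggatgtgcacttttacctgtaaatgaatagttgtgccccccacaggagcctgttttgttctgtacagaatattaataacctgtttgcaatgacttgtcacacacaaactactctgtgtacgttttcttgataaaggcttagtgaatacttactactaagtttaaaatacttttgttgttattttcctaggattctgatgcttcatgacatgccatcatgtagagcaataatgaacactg
The Chd4 window held 1 CCAAT, 3 GGGCGG and 29 CpG dinucleotides, more CpG than 87.1% of the 32841 RefSeq promoter windows of this length. The overlapping Chd4 window, chr6:125095731-125096030, held 1 CCAAT, 3 GGGCGG and 17 CpG, more CpG than 68.6% of windows. The upstream Chd9 window held 1 GGGCGG and 19 CpG, and the downstream Chd9 window held neither motif and 1 CpG, with 34.7% G and C. CCAAT was found in 37.4% and GGGCGG in 35.7% of all windows, and TATAAA, in 13.6% of all windows, was in none of the 3 shown. These matches describe the sequence only. The arrays do not tell from which start a Chd9 transcript came.

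Chd7 was measured by 2 probe sets, and 1 of them was called higher at E12.5 than at both earlier stages. Probe set 1448026_at read 7.74, 7.19 and 7.41 on E10.5 A, B and C, 6.82, 7.12 and 7.30 on E11.5 A, B and C, and 8.59 and 8.42 on E12.5 A and B. Both E12.5 arrays thus stood above every earlier array, while the E10.5 and E11.5 arrays overlapped. The stage means were 7.45 ± 0.28 (SD, n = 3), 7.08 ± 0.24 (SD, n = 3) and 8.51 ± 0.12 (SD, n = 2). It rose 2.69-fold from E11.5 to E12.5, a log2 change of 1.43 (SE 0.27, limma adjusted p = 0.0226), and 2.08-fold from E10.5 to E12.5, a log2 change of 1.06 (SE 0.27, adjusted p = 0.0489). It was the single Chd probe set of 18 called between E11.5 and E12.5, where 1.82% of all tested probe sets were called, and the single one called in the F test for any stage difference (adjusted p = 0.034, 2.92% of all called).

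The other Chd7 probe set, 1437745_at, read 9.51, 9.0 and 10.50 at E10.5, 8.34, 9.12 and 8.54 at E11.5, and 9.17 and 9.07 at E12.5. Its highest value was on E10.5 C and its lowest on E11.5 A, and all pairs of stages overlapped. Its stage means were 9.67 ± 0.76 (SD, n = 3), 8.67 ± 0.41 (SD, n = 3) and 9.12 ± 0.07 (SD, n = 2), highest at E10.5, and no neighbours in that order differed past the threshold. The change from E11.5 to E12.5 was 0.45 with a 95% interval from -0.46 to 1.36, and that from E10.5 to E12.5 was -0.55 with an interval from -1.46 to 0.36, opposite in sign to 1448026_at. Without E10.5 C the change from E10.5 to E12.5 was -0.14. The change from E10.5 to E11.5 of -1.0 (SE 0.37, adjusted p = 0.194) was not called, and without E10.5 C and E11.5 A it was -0.43.

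**Figure D1:**
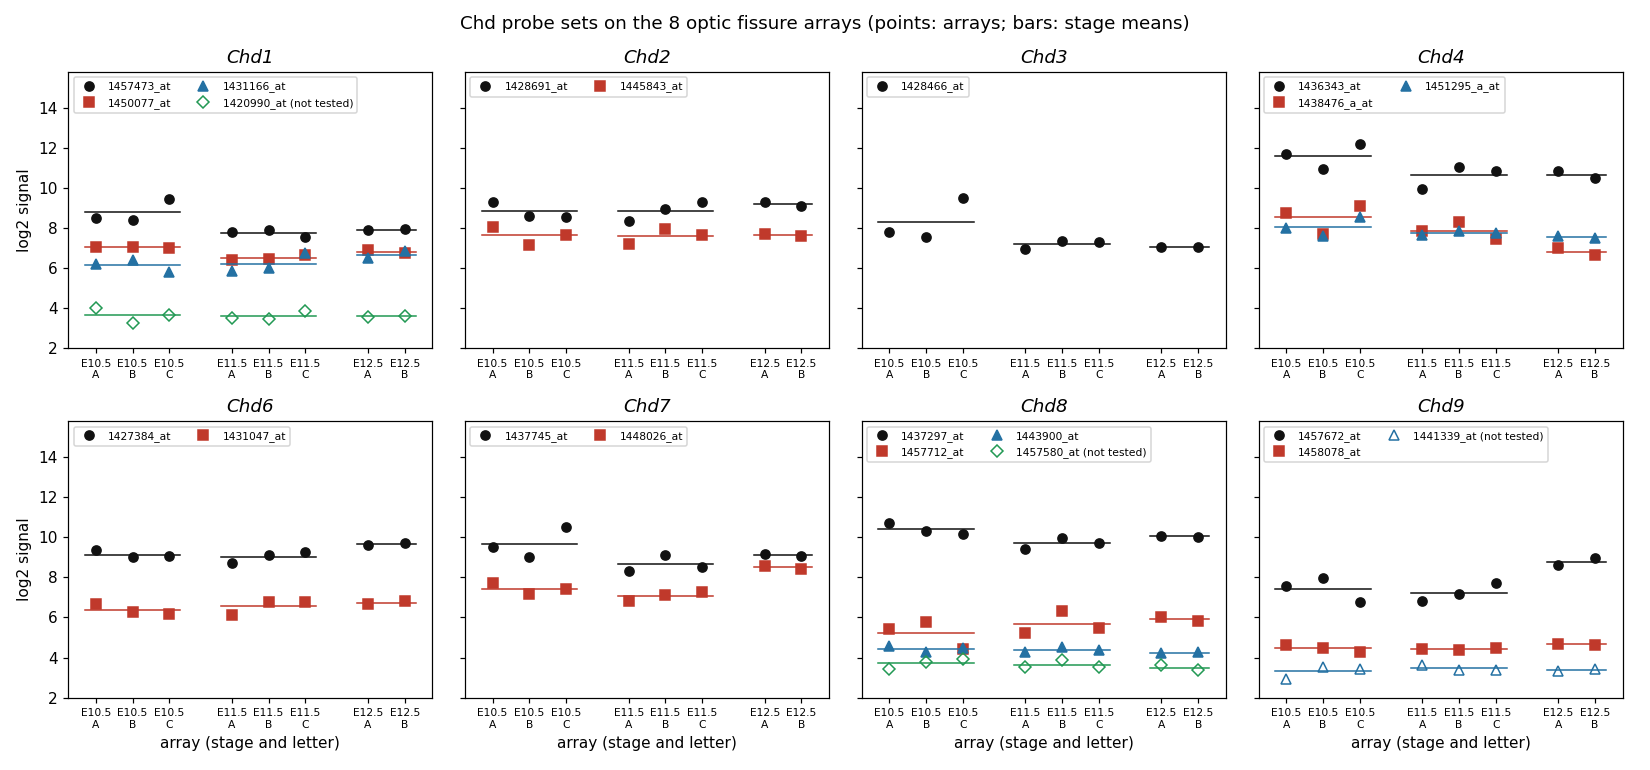
Log2 signal of all 21 Chd probe sets (y axis) on the 8 arrays (x axis, stage and letter), 1 panel per gene, with 1 symbol per probe set, bars at stage means and open symbols for the 3 untested probe sets. The Chd7 probe set 1448026_at and the Chd9 probe set 1457672_at are highest on both E12.5 arrays, and Chd3 stands at 9.52 on E10.5 C against 7.80 or less elsewhere.

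The call for 1448026_at between E11.5 and E12.5 was lost without E11.5 A (adjusted p = 0.0976), E11.5 B (0.101), E12.5 A (0.153) or E12.5 B (0.240), although the log2 change stayed between 1.30 and 1.53. That between E10.5 and E12.5 was kept in 1 of the 8 fits with an array left out, without E10.5 A (adjusted p = 0.0496), was lost in the other fits (0.0502 to 0.341) and was lost with no filter (adjusted p = 0.0702). Without both E10.5 C and E11.5 A the probe set was called in both comparisons, at 1.30 (adjusted p = 0.0278) and 1.04 (adjusted p = 0.0346). E12.5 A and B had the highest and second highest values of this probe set and of the Gapdh control, and the E11.5 arrays ran in the same order in both, A lowest and C highest. The E10.5 arrays did not, since E10.5 C was lowest by Gapdh and E10.5 B lowest by the probe set. By Actb, E12.5 B was highest at 7.21, and E12.5 A, at 6.88, lay within the range of the E10.5 arrays. The Pearson r of 1448026_at over the 8 arrays was 0.83 with Gapdh and 0.68 with Actb, and the cause was not tested. With the Gapdh control as a covariate, an alternative chosen after the data were seen, the change from E11.5 to E12.5 was 1.03 (SE 0.31, adjusted p = 0.341) and that from E10.5 was 0.86 (SE 0.24, adjusted p = 0.0887). The log2 mean signal of the newborn neuron markers was high on the same 2 arrays. Single markers differed between these arrays, with an SD at E12.5 of 2.85 for Dcx, 2.08 for Tubb3 and 1.93 for Stmn2. The part of the markers in the Chd7 value was not tested. In pooled tissue, fewer cells of a type and less RNA per cell cannot be told apart.

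The difference between the Chd7 probe sets, 1448026_at minus 1437745_at, was nearest to 0 at E12.5. It was -1.77, -1.81 and -3.09 at E10.5, -1.52, -2.0 and -1.24 at E11.5, and -0.58 and -0.65 at E12.5. Both E12.5 arrays lay above the other 6, among which E10.5 C stood lowest. The difference was 1.61 larger at E12.5 than at E10.5 (SE 0.41, limma adjusted p = 0.105 over the 9600 within-gene differences of 5806 genes), and the F test over the 3 stages gave an adjusted p of 0.21. Across the family, 0 of the 10 within-gene differences passed this F test in limma, against 0.354% of all, and 5 of 10 had an unadjusted p below 0.05, against 1733 of 9600. A different stage course of the 2 Chd7 probe sets was therefore not established past the threshold.

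**Figure D2:**
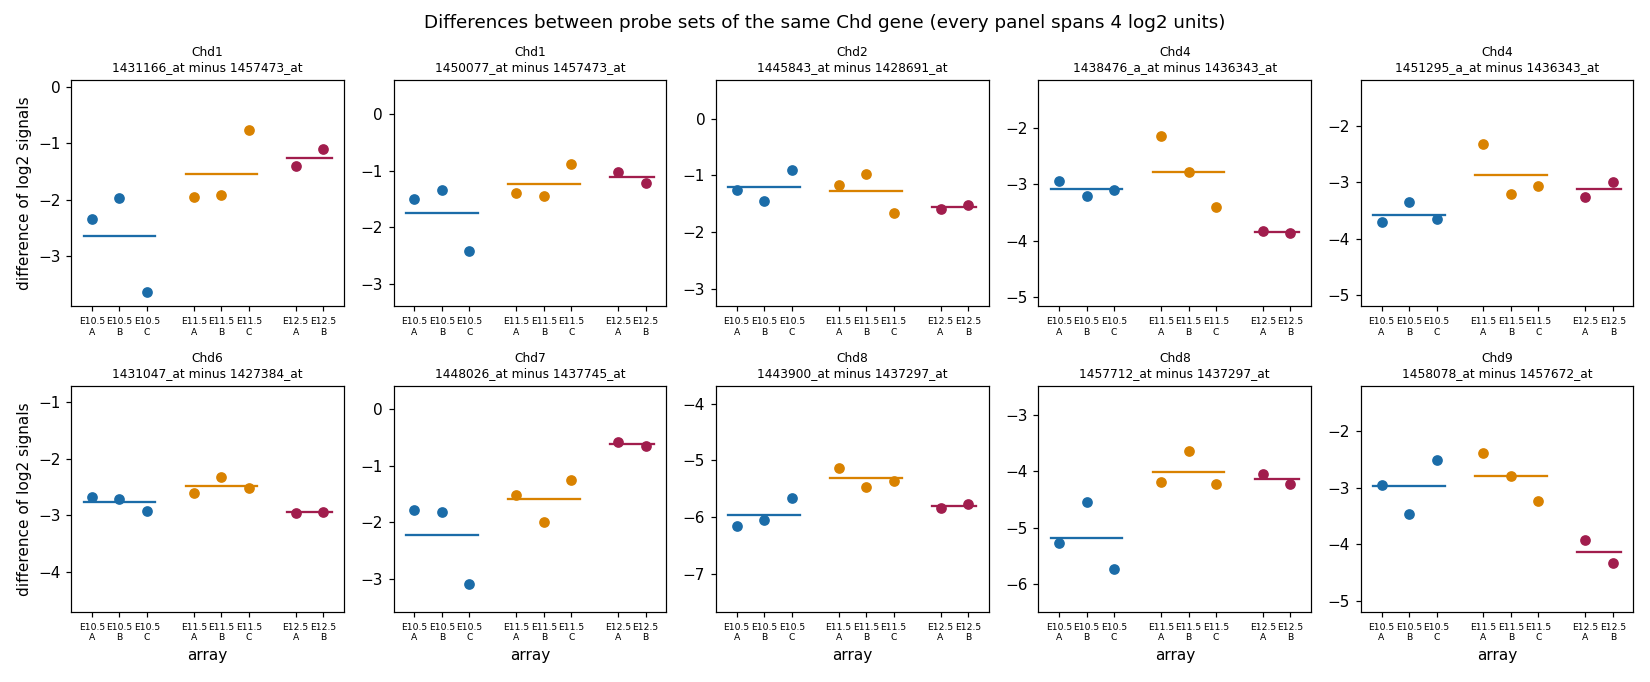
Difference of log2 signals between each further tested probe set of a Chd gene and the gene's brightest one (y axis, 4 log2 units in every panel) on each array (x axis), with bars at stage means. For Chd7 the E12.5 points sit at -0.58 and -0.65, above the other 6 arrays, and for Chd9 they sit at -3.93 and -4.33, below them.

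Chd9, a coactivator of nuclear receptors, had 2 tested probe sets. Probe set 1457672_at read 7.57, 7.95 and 6.79 at E10.5, 6.80, 7.19 and 7.73 at E11.5, and 8.62 and 8.98 at E12.5. Both E12.5 arrays were again above all others, and E10.5 and E11.5 overlapped. Its log2 changes were 1.56 from E11.5 to E12.5 (SE 0.37, 95% interval 0.74 to 2.37, adjusted p = 0.0637) and 1.36 from E10.5 to E12.5 (SE 0.37, interval 0.55 to 2.18, adjusted p = 0.0617), each the most positive of the 18 in its comparison, and neither was called. Without E10.5 C the first was called (adjusted p = 0.0196), as it was without E11.5 C (0.0367) and without both E10.5 C and E11.5 A (0.0342), and with the Gapdh covariate it was 0.83 (adjusted p = 0.69). The second was called without E10.5 B (adjusted p = 0.0415), without both E10.5 C and E11.5 A (0.0471), with a pseudocount of 64 (0.0494) and after quantile normalization (0.04998), which gives 3 called Chd probe sets from E10.5 to E12.5 in the last 2 settings. The dimmer probe set 1458078_at, between 4.29 and 4.69 on the 8 arrays, also did not overlap between E12.5 and the earlier stages, with changes of 0.23 and 0.20. The third, 1441339_at, lay between 2.94 and 3.62 and was not tested.

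Chd6, a remodeller tied to oxidative stress responses, was also highest at E12.5. Its brightest probe set, 1427384_at, read 9.35, 9.01 and 9.07 at E10.5, 8.73, 9.11 and 9.27 at E11.5, and 9.62 and 9.74 at E12.5. The E12.5 arrays were the highest and did not overlap with either stage. The changes at E12.5 were smaller than those of Chd9 1457672_at in size, at 0.65 against E11.5 (SE 0.29, adjusted p = 0.29) and 0.54 against E10.5 (SE 0.29, adjusted p = 0.302), and that difference between genes was not tested. Over the alternative settings the change of 1427384_at against E11.5 ran from 0.18 to 0.76. Its Pearson r with the Gapdh control was 0.86. The other probe set, 1431047_at, lay between 6.12 and 6.81 with all stages overlapping.

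Chd8, which binds beta-catenin and the insulator protein CTCF and is a leading autism gene in humans, was measured by 4 probe sets, of which 3 were tested and none was called. The brightest, 1437297_at, read 10.72, 10.33 and 10.17 at E10.5, 9.42, 9.96 and 9.71 at E11.5, and 10.07 and 10.03 at E12.5. The E11.5 arrays were the lowest and no 2 stages overlapped. Neither the change of -0.71 from E10.5 to E11.5 (SE 0.28, adjusted p = 0.211) nor that of 0.35 from E11.5 to E12.5 (SE 0.31, adjusted p = 0.613) was called, and after quantile normalization they were -0.031 and -0.18. Probe set 1457712_at changed by 0.46 (SE 0.35) over the first interval, opposite in sign, and the Pearson r of the pair over the 8 arrays was 0.01. The difference between these probe sets shifted by 1.16 from E10.5 to E11.5 (SE 0.34, adjusted p = 0.303) and was not called. Probe set 1443900_at spanned only 4.23 to 4.56, and 1457580_at, between 3.37 and 3.91, was not tested.

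Chd4, the main NuRD motor in dividing embryonic cells, had a lower mean at E12.5 than at E10.5 on all 3 of its probe sets, and 1 of them was called. Probe set 1438476_a_at, whose suffix marks probes shared by alternative transcripts of the same gene, read 8.76, 7.72 and 9.09 at E10.5, 7.82, 8.29 and 7.43 at E11.5, and 7.0 and 6.63 at E12.5. Both E12.5 arrays were below all others, while E10.5 and E11.5 overlapped. It fell by 1.71 on the log2 scale from E10.5 to E12.5 (SE 0.40, adjusted p = 0.0348), which makes 1 rise and 1 fall called among 18 Chd probe sets in a comparison where 4.64% of all tested probe sets were called. The change from E11.5 to E12.5 was -1.03 (SE 0.40, adjusted p = 0.227). The fall from E10.5 lost its call without E10.5 A (adjusted p = 0.0787), E10.5 C (0.063), E11.5 B (0.0522), E12.5 A (0.108) or E12.5 B (0.383), without both E10.5 C and E11.5 A (0.0501), and with the Gapdh covariate (-1.55, adjusted p = 0.0927). Over the same interval limma called markers of other cell types, higher for 8 of 8 tested newborn neuron, 2 of 6 periocular mesenchyme, 2 of 5 pigment epithelium and 1 of 3 lens genes, and lower for 1 of 4 erythroid genes. Of the called genes, Atoh7, Neurog2, Neurod1, Dcx, Tubb3 and Stmn2 passed the filter only through the E12.5 arrays. Insm1, Ogn and Tyr, with E10.5 means of 3.72, 3.10 and 3.77, passed it only through the later stages. For these genes being tested was tied to being high later. The log2 mean signal of the mesenchyme list was 4.66 to 5.02 at E10.5 against 6.36 to 7.10 at E12.5. That of the lens list was 3.75 to 4.22 against 5.91 to 6.32, and that of the pigment list 8.30 to 9.69 against 9.37 to 10.1. The lens rise was that of Cryab alone (4.10), since the other tested lens genes, Cryaa and Pitx3, changed by -0.26 and -0.14. Among tested genes, Mitf alone of the pigment list (-1.18) and Foxc2 alone of the mesenchyme list (-0.36) had a negative change. The part of these markers in the Chd4 value was not tested.

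The brightest Chd4 probe set, 1436343_at, read 11.71, 10.93 and 12.19 at E10.5, 9.96, 11.07 and 10.84 at E11.5, and 10.84 and 10.48 at E12.5. Both E12.5 arrays lay below the E10.5 arrays and within the range of the E11.5 arrays. Its change from E10.5 to E12.5 was -0.95 (95% interval -1.92 to 0.02, adjusted p = 0.236), and that of 1451295_a_at was -0.50 (interval -1.16 to 0.15, adjusted p = 0.349), each without overlap. From E11.5 to E12.5 these probe sets changed by 0.04 and -0.22. The difference of 1438476_a_at from the brightest probe set, -2.14 to -3.41 on the 6 earlier arrays, was -3.83 and -3.86 at E12.5, a shift of -1.07 from E11.5 (SE 0.36, adjusted p = 0.302) that was not called.

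Chd3, the alternative NuRD motor, had a single probe set, 1428466_at, which read 7.80, 7.55 and 9.52 at E10.5, 6.94, 7.34 and 7.30 at E11.5, and 7.04 and 7.02 at E12.5. Every E10.5 array was above every later one, but E10.5 C alone was above 7.80. The changes against E10.5 were -1.09 at E11.5 (SE 0.42, adjusted p = 0.203) and -1.26 at E12.5 (SE 0.47, adjusted p = 0.149), and neither was called. Without E10.5 C they were -0.48 (adjusted p = 0.282) and -0.65 (adjusted p = 0.163). The stage means were 8.29, 7.20 and 7.03, and the change between the last pair was -0.17.

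Chd1, a remodeller that works with RNA polymerase and keeps chromatin open in early embryonic cells, had 3 tested probe sets. The brightest, 1457473_at, read 8.52, 8.38 and 9.43 at E10.5, 7.78, 7.92 and 7.53 at E11.5, and 7.89 and 7.94 at E12.5. The E10.5 arrays stood above all later ones. The change from E10.5 to E11.5 was -1.03 (SE 0.30, adjusted p = 0.159), the smallest p of any Chd probe set in that comparison, and it was not called. Probe set 1450077_at also stood highest at E10.5 (7.02, 7.04 and 7.02) and changed by -0.53 (SE 0.20, adjusted p = 0.203). Probe set 1431166_at went the other way at E12.5, at 0.53 against E10.5 (SE 0.31, adjusted p = 0.34), and its Pearson r with the brightest probe set over the 8 arrays was -0.52. The 1420990_at probe set lay between 3.28 and 4.01 and was not tested.

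Chd2, a remodeller that deposits the histone variant H3.3 and is mutated in epilepsies, had no change above 0.37. Probe set 1428691_at read 9.31, 8.61 and 8.57 at E10.5, 8.35, 8.93 and 9.30 at E11.5, and 9.29 and 9.11 at E12.5. All stages overlapped, and the changes were 0.03, 0.34 and 0.37 for the 3 comparisons, with 95% intervals that reached at most 1.14 above and 0.65 below 0. Probe set 1445843_at lay between 7.16 and 8.05, with changes between -0.03 and 0.05 and intervals within 0.76 of 0.

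**Figure D3:**
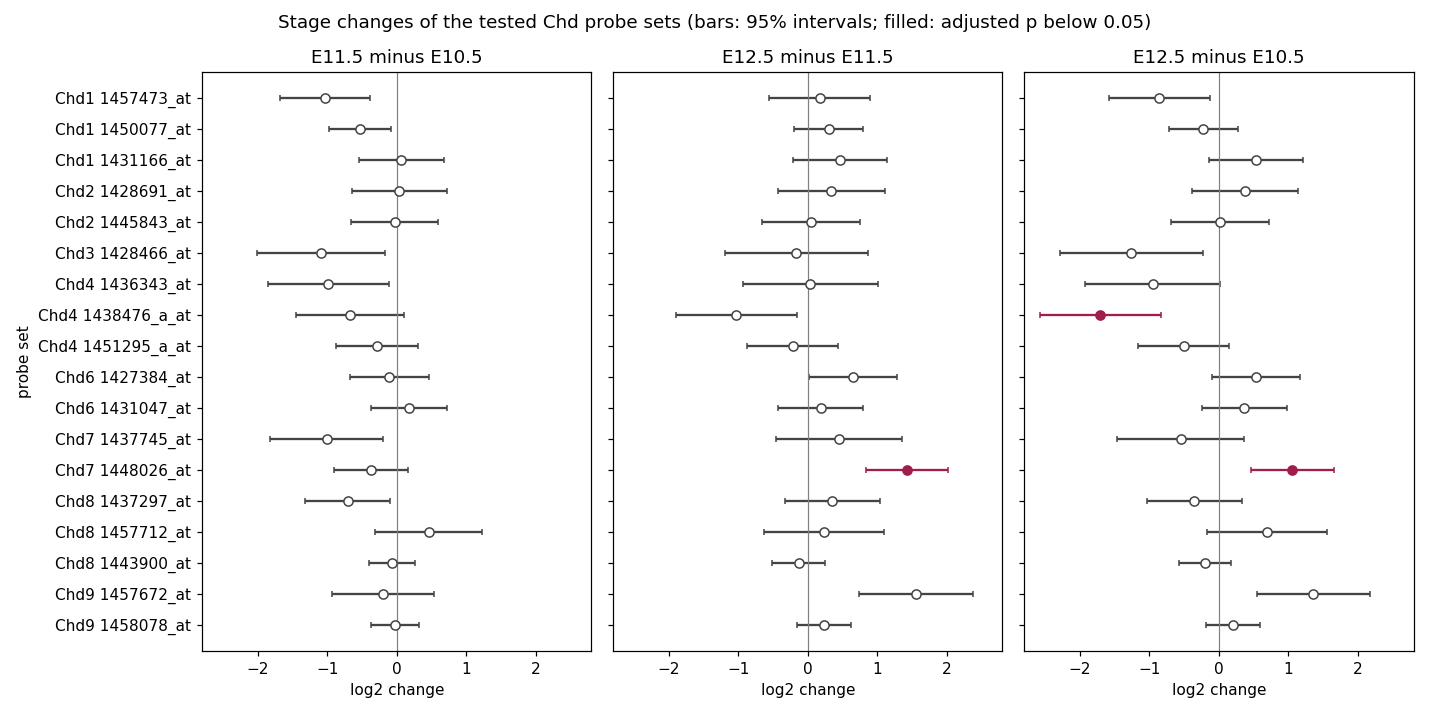
Log2 change between stages (x axis) for the 18 tested Chd probe sets (y axis) in the 3 comparisons, with 95% intervals from limma's moderated spread and filled symbols where the adjusted p was below 0.05. The filled points are Chd7 1448026_at at 1.43 and 1.06 and Chd4 1438476_a_at at -1.71.

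From E10.5 to E11.5, limma called 0 of the 18 Chd probe sets, against 0.126% of all 27022, and 6 of 18 had an unadjusted p below 0.05, against 5254 of all. Of the 18 changes, 14 were negative with a median of -0.24, beside a median of -0.18 over all tested probe sets, of which 70.9% were negative. After quantile normalization 9 of 18 were negative with a median of -0.01. In this interval 4 Chd probe sets were lower without overlap, against 19.3% of all, and 0 were higher, against 3.57%. From E11.5 to E12.5, 14 of 18 changes were positive, beside 60% of all tested probe sets. The median was 0.23, beside 0.10 over all, and -0.05 after quantile normalization. Here 6 probe sets were higher without overlap, against 29.6% of all, and 3 lower, against 14.1%. From E10.5 to E12.5, 9 changes were positive and 9 negative, beside 42.4% and 57.6% of all. In that comparison 6 were higher without overlap, against 19.3% of all, and 8 lower, against 25.7%.

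Over the arrays, the 2 Chd7 probe sets were most like different relatives. Over the 8 arrays, which differ in stage, signal range and RNA quality in ways that every probe set shares, 1437745_at had a Pearson r of 0.92 with Chd1 1457473_at, 0.90 with Chd4 1436343_at and 0.89 with Chd3 (Spearman rho 0.74, 0.74 and 0.69), all of which were highest on E10.5 C. Probe set 1448026_at had an r of 0.94 with Chd6 1427384_at and 0.83 with Chd9 1457672_at (rho 0.86 and 0.60), and -0.17 with Chd3. The r between the Chd7 probe sets was 0.22 (rho 0.57). For other members, r of each further tested probe set with the gene's brightest one was 0.85 for Chd9, 0.75 for Chd6 and 0.68 for Chd2. It was 0.75 and 0.86 for Chd4, 0.69 and -0.52 for Chd1, and 0.47 and 0.01 for Chd8. The median over the 10 pairs with a brightest probe set, Chd7 included, was 0.69, beside 0.49 over all 9600. Between the further probe sets themselves r was 0.86 for Chd4, 0.11 for Chd1 and -0.28 for Chd8. These values are a description and were not tested.

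**Figure D4:**
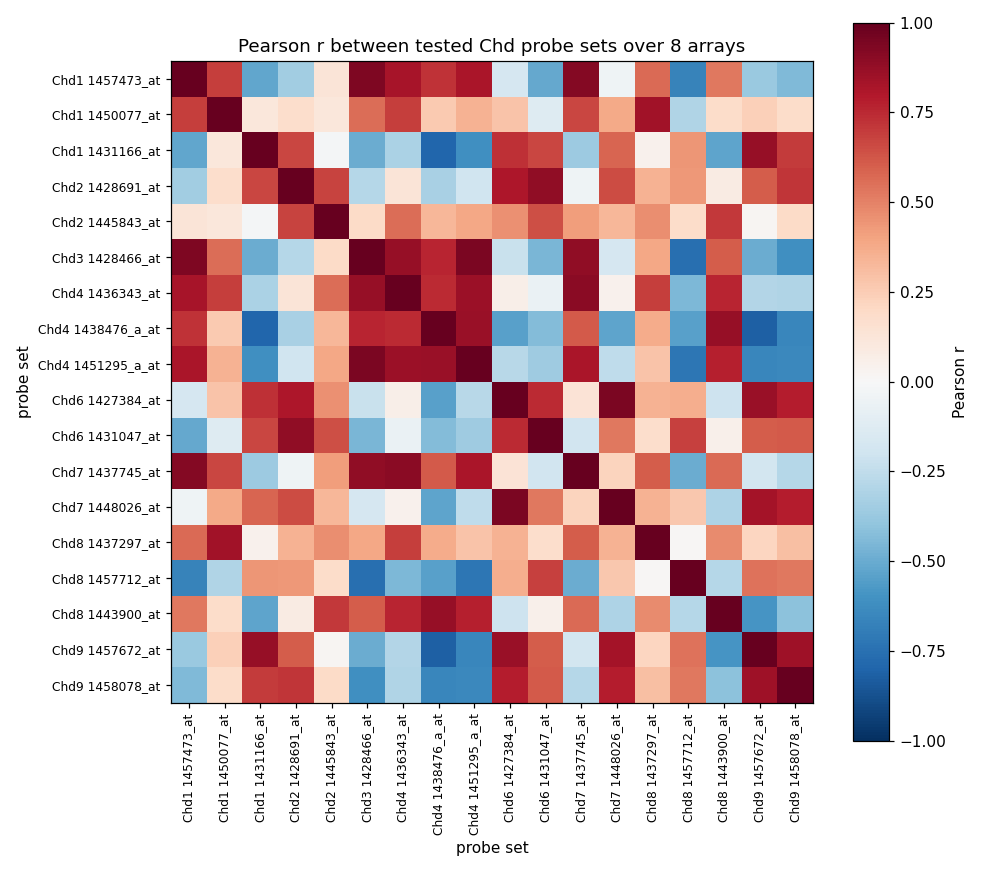
Pearson r over the 8 arrays between every pair of the 18 tested Chd probe sets, with rows and columns in the same order and the colour scale from -1 to 1. The row of Chd7 1437745_at is dark with Chd1 1457473_at (0.92), Chd3 (0.89) and Chd4 1436343_at (0.90), and that of Chd7 1448026_at with Chd6 1427384_at (0.94).

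Outside the family, the 5 genes whose probe sets ran most like Chd7 1437745_at over the 8 arrays were Zswim3 (r = 0.98), Mtmr2 (0.98), 2810004N23Rik (0.98), Uhrf1bp1l (0.98) and Man1a2 (0.98), the best of 27022 probe sets searched. Mtmr2 is a phosphoinositide phosphatase and Man1a2 a mannosidase of the Golgi. Because they were picked by r on these same arrays, the shared order of their stage means, highest at E10.5 and lowest at E11.5, is no separate finding. For Man1a2 the means were 8.06 ± 0.55 (SD, n = 3), 7.34 ± 0.15 (SD, n = 3) and 7.78 ± 0.001 (SD, n = 2).

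**Figure D5:**
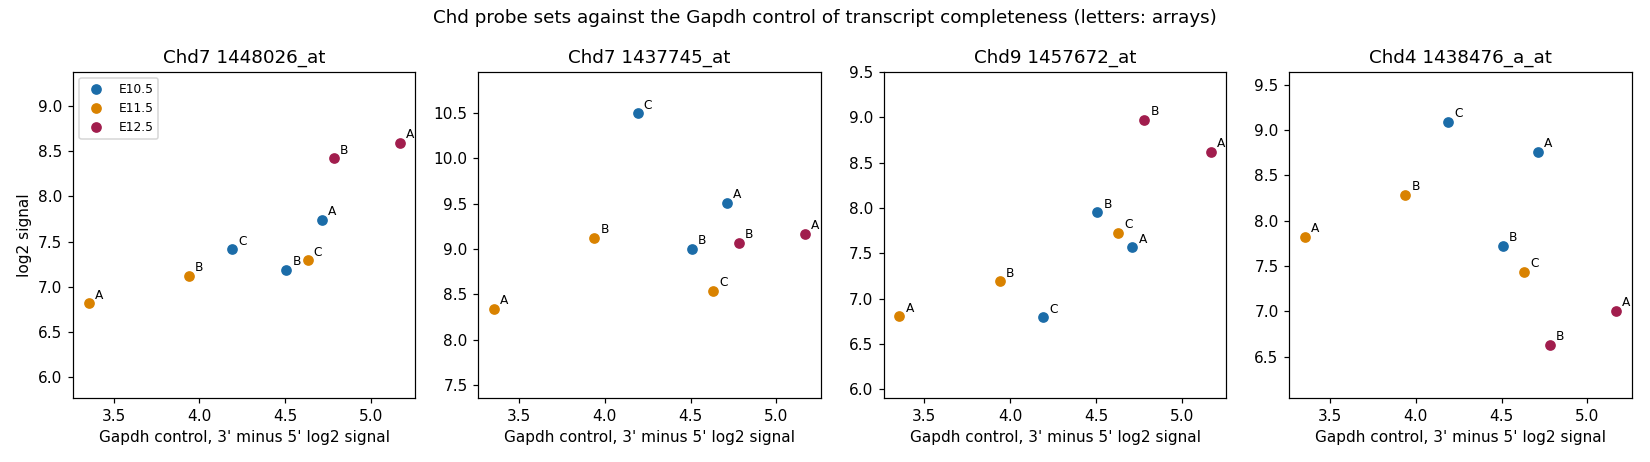
Log2 signal of 4 Chd probe sets (y axis, 3.6 log2 units in every panel) against the Gapdh control, 3 prime minus 5 prime (x axis, log2), 1 point per array with its letter, coloured by stage. Chd7 1448026_at and Chd9 1457672_at are highest on the E12.5 arrays, whose Gapdh values are 4.78 and 5.17, and Chd7 1437745_at is highest on E10.5 C at 4.19.

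Other remodellers and partners were read beside the family, each gene by its brightest tested probe set. In the NuRD list, the partners of Chd3 and Chd4, limma called 0 of 12 genes in each of the 3 comparisons, where 5, 3 and 4 had an unadjusted p below 0.05 (22.2%, 18.1% and 24.2% of all genes), and the smallest F-test p was that of the methyl-CpG binder Mbd2 (adjusted p = 0.127), which changed by 0.95 from E10.5 to E12.5 (SE 0.27, adjusted p = 0.0698). In the BAF and PBAF list limma called 0 of 21, with 9, 7 and 2 at an unadjusted p below 0.05, and the gene with the smallest p was Bcl7a, a BAF accessory subunit, at -0.88 and then 1.06 over the successive intervals (F-test adjusted p = 0.0825). In the INO80 and SRCAP list limma called 0 of 12, with 2, 0 and 4 at an unadjusted p below 0.05, and Actr5, an actin-related subunit, had the smallest p (F-test adjusted p = 0.116). In the ISWI list, with 3, 3 and 1 at an unadjusted p below 0.05, 1 of 11 was called, Baz2b, a bromodomain partner of the ISWI motor, which rose by 1.95 from E10.5 to E12.5 (SE 0.44, adjusted p = 0.0309). Over all 13050 genes read this way, 0.176% were called from E10.5 to E11.5, 2.02% from E11.5 to E12.5 and 5.26% from E10.5 to E12.5.

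In the values as deposited the 4 list medians were negative over the first interval and positive over the second. From E10.5 to E11.5 they were -0.51 for NuRD, -0.65 for BAF and PBAF, -0.43 for ISWI and -0.45 for INO80 and SRCAP, beside -0.22 over all genes, and 20 of 21 BAF and PBAF genes were negative, beside 72.3% of all genes. After quantile normalization these medians were -0.06, -0.10, 0.04 and -0.15, and 15 of 21 BAF and PBAF genes were negative. From E11.5 to E12.5 they were 0.42, 0.53, 0.43 and 0.15, beside 0.11 over all genes, and 0.04, 0.09, 0.05 and -0.07 after quantile normalization. Without E11.5 A the NuRD medians of the 2 intervals were -0.20 and 0.12, and the second-interval median of INO80 and SRCAP was -0.00042. With the Gapdh covariate the second-interval medians were -0.04 for NuRD, 0.13 for BAF and PBAF, 0.01 for ISWI and -0.33 for INO80 and SRCAP. The signs of the NuRD and of the INO80 and SRCAP medians thus depended on the setting in the second interval only. That of the ISWI median did so in the first interval only.

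Among 14 measured genes tied to Chd7 in other tissues, 3 were called in at least 1 comparison. None was called from E10.5 to E11.5, 1 was higher and 1 lower from E11.5 to E12.5, and 2 were lower from E10.5 to E12.5. Over all genes, 0.176%, 2.02% and 5.26% were called in these comparisons. Sema3e, a repulsive guidance ligand, fell by 1.73 from E11.5 to E12.5 (SE 0.23, adjusted p = 0.00258) and by 0.92 from E10.5 to E12.5 (SE 0.23, adjusted p = 0.0448), to a mean of 3.99 ± 0.15 (SD, n = 2), close to the filter value of 3.94. Sox2, a factor of neural progenitors, rose by 2.0 from E11.5 to E12.5 (SE 0.34, adjusted p = 0.0129). Before that it changed by -1.21 from E10.5 to E11.5 (SE 0.31, adjusted p = 0.143), which was not called. The Sox2 stage means were 11.42, 10.21 and 12.21, and a tie to Chd7 was not tested. Otx2, a homeodomain factor of the pigment epithelium, fell by 1.34 from E10.5 to E12.5 (SE 0.34, adjusted p = 0.0469). The lists overlap, since Wdr5, Ash2l and Rbbp5 are tied to both Chd7 and Chd8, and Pbrm1 is also in the BAF and PBAF list. Among 6 measured genes tied to Chd8, the cyclin gene Ccne2 rose by 1.70 from E11.5 to E12.5 (SE 0.30, adjusted p = 0.0155) and the other 5 did not pass. Of these 5 called genes, 0 were called without E12.5 B, and Sema3e alone without E11.5 B or without E12.5 A.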

How the data were processed

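The deposited table holds log2 signals, 1 per probe set and array, and the submitters' processing notes name GCOS 1.4 with no role. Probe summary, background removal and normalization are not given in the sources used here. Control probe sets (64) and the lowest 40% by mean log2 signal (below 3.94) were left out, which kept 27022. Probe sets were named from the platform annotation of the array, with symbols updated by gene identifier through RefSeq GRCm38.p6, in which all 21 Chd probe sets matched, and those with several genes were not named. Matching was by identifier because RefSeq lists Chd7 as an older synonym of Chd3.

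Stage differences came from 1 linear model over 8 arrays (limma 3.58.1, R 4.3.3) with 5 residual degrees of freedom and a trend in the prior variance, with Benjamini-Hochberg adjustment over all tested probe sets. Within-gene differences (each further probe set of a gene minus its brightest) were fitted likewise for all genes. The fit was tried on simulated data with independent noise in each probe set. No shift shared by the probe sets of an array was simulated, so array-wide effects were not covered. Precision is limited by the small number of arrays.

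All Chd probe sets were described. Array values were given for both Chd7 probe sets, the brightest of each other gene and any called. From each other list, called genes (at most 4 per comparison) or the gene with the smallest F-test p were named. The members, lists, rule and tests were chosen with earlier results of these data known. The smallest p-values rest on whether arrays of a stage are separate samples, and they may measure technical spread only. Alternatives were quantile normalization, median centring, a pseudocount of 64, no filter, a 60% filter, no trend, the letter as a block and each array left out. Figures were drawn with matplotlib.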

Additional observations from a re-analysis of the deposited data

How the results depend on the processing

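The counts rested on single arrays. Leaving out each array in turn gave 0 to 2 called Chd probe sets from E11.5 to E12.5 (1 as reported), 0 to 2 from E10.5 to E12.5 (2) and 0 to 2 in the F test (1). It gave 0 from E10.5 to E11.5 and 0 within-gene differences throughout, and 0 to 7 called genes outside the family (5). Where 1 E12.5 array remained it was assumed to vary like the other stages. With no filter 1 Chd probe set was called from E10.5 to E12.5, and a pseudocount of 64 gave 2 from E11.5 to E12.5. Without both E10.5 C and E11.5 A, chosen after seeing the data, 2 were called from E11.5 to E12.5 and 2 in the F test. With the Gapdh covariate, also chosen afterwards, 0 were called in either E12.5 comparison or in the F test, and 2 genes outside the family.

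The replicate block, with the letters as a block, left 0 calls in the E12.5 comparisons and in the F test. Deviations of same-letter arrays from their stage means correlated between -0.39 and 0.13, so the letters were not taken as pairs.

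Of 510 refits of the 10 named Chd probe sets, 454 kept sign and side of the threshold, 24 lost a call, 8 gained one and 24 turned sign, none of the last in a called change. After quantile normalization the change from E11.5 to E12.5 was -0.17 for Chd1 1457473_at, -0.093 for Chd2 1428691_at, -0.61 for Chd4 1436343_at and -0.18 for Chd8 1437297_at, and that from E10.5 to E11.5 was 0.39 for Chd6 1427384_at and 0.024 for Chd9 1457672_at. The block gave 0.17 for Chd3 from E11.5 to E12.5. Without both arrays Chd4 1436343_at was -0.29 from E11.5 to E12.5 and Chd6 1427384_at 0.010 from E10.5 to E11.5. With the covariate, from E11.5 to E12.5 Chd2 1428691_at was -0.45, Chd3 0.089 and Chd4 1436343_at -0.39, from E10.5 to E12.5 Chd2 was -0.027, and from E10.5 to E11.5 Chd6 was 0.077 and Chd9 0.17. With 1 array left out, values from E10.5 to E11.5 ran from -0.19 to 0.29 for Chd2 1428691_at, -0.22 to 0.046 for Chd6 1427384_at and -0.52 to 0.061 for Chd9 1457672_at, and from E11.5 to E12.5 from -0.29 to 0.26 for Chd4 1436343_at. The cause was not tested.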
